A study of Mus musculus with 15 samples.

Results

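Aldehyde dehydrogenases are enzymes that oxidize aldehydes to carboxylic acids with NAD+ or NADP+ as the electron acceptor. The 10 genes described here, *Aldh3a1*, *Aldh3a2*, *Aldh3b1*, *Aldh1a1*, *Aldh1a3*, *Aldh1a7*, *Aldh2*, *Aldh9a1*, *Aldh7a1* and *Aldh1l2*, were taken by gene symbol from the 35880 symbols of the deposited expression table, and all 10 were found. They were described in LL2/Luc2 cells, a luciferase-expressing Lewis lung carcinoma line of the mouse. The parental line (LL2 WT) was compared with *KEAP1* KO #1, #2 and #3 and with *NRF2* KO, each of which is a single clone derived from LL2 cells by CRISPR. All lines were untreated and grown in the same medium, and RNA of each was sequenced in 3 biologic replicates, 15 samples in all. Each knockout line is 1 clone, so p-values measure the spread between the replicates of a line and not the spread between clones. This also holds where the 3 *KEAP1* KO clones are averaged.

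The enzymes differ in the aldehydes they handle. The class 1A enzymes ALDH1A1 and ALDH1A3 convert retinal to retinoic acid, class 3 enzymes oxidize medium- and long-chain aldehydes such as those released from peroxidized lipids, ALDH2 clears acetaldehyde in mitochondria, and the remaining members serve single steps of amino acid, carnitine and folate metabolism. KEAP1 is the adaptor that marks NRF2 for degradation, and NRF2 is a transcription factor that switches on detoxifying enzymes through antioxidant response elements, so loss of KEAP1 stabilizes NRF2. High aldehyde dehydrogenase activity is widely used as a marker of drug-tolerant cells in lung tumors.

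Expression is given as CPM, counts scaled to the same total in each sample. Lines were compared by limma over 14652 genes after a log2(CPM + 0.1) transformation. A gene is termed called where the p adjusted by Benjamini-Hochberg lay under 0.05 and the log2 fold change exceeded 1 in size. On this scale the fold changes of genes with low values are understated. A level of 0.1 CPM, about 3 reads at the average depth that the methods give, was used as the floor, since no depth per sample was given. The samples summed to between 999412 and 999525 CPM, with 17270 to 19750 genes above 0. *Keap1* ranged from 22.0 to 24.0 CPM in LL2 WT, from 10.8 to 12.5 CPM in *KEAP1* KO #1, from 4.28 to 7.29 CPM in *KEAP1* KO #2, from 3.78 to 6.83 CPM in *KEAP1* KO #3 and from 21.6 to 24.8 CPM in *NRF2* KO. *Nfe2l2*, the gene of NRF2, ranged from 102 to 146 CPM in *NRF2* KO and from 170 to 208 CPM in LL2 WT, and its transcript level does not show whether the protein is lost. Of 5 epithelial markers, *Epcam* and *Cdh1* were under the floor in all 15 samples. The sum of the 5, mostly *Krt18* and *Krt8*, was 592 to 667 CPM in LL2 WT and 386 to 548 CPM in *NRF2* KO. That sum was 299 to 439 CPM in *KEAP1* KO #1, 560 to 614 CPM in *KEAP1* KO #2 and 537 to 639 CPM in *KEAP1* KO #3. The summed level of 3 mesenchymal markers, nearly all *Vim*, was 3572 to 5801 CPM in LL2 WT, 3242 to 4564 CPM in *NRF2* KO and 1548 to 2157 CPM over the *KEAP1* KO samples. Of these markers, *Cdh2* averaged 6.73 CPM in LL2 WT, 10.4 CPM in *NRF2* KO, and 10.8, 0.351 and 11.7 CPM in *KEAP1* KO #1, #2 and #3. The endothelial marker *Cdh5* averaged 0.0227 CPM in LL2 WT, 0.197 CPM in *NRF2* KO, and 0.104, 0.819 and 1.25 CPM in the clones. The summed level of 4 leukocyte markers was 1.99 to 4.54 CPM in LL2 WT, 1.84 to 3.22 CPM in *NRF2* KO, 4.97 to 9.29 CPM in *KEAP1* KO #1, 8.92 to 22.6 CPM in *KEAP1* KO #2 and 14.0 to 36.5 CPM in *KEAP1* KO #3. It was nearly all *Cd68*, while *Adgre1* was at 0 in every sample and *Ptprc*, at most 0.192 CPM, and *Cd3e*, at most 0.0350 CPM, were low throughout. The part of these markers in the results on the members was not tested. In bulk RNA a change in the share of cells of a kind and a change in the RNA per cell cannot be told apart.

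The level of the family rested on a few members. To compare genes, CPM were divided by the length of the transcript with the longest coding sequence in the GENCODE M21 annotation. In LL2 WT, *Aldh2* averaged 73.0 ± 18.5 CPM per kb (SD, n = 3), *Aldh9a1* 31.9 ± 1.91 CPM per kb, *Aldh7a1* 17.2 ± 1.94 CPM per kb and *Aldh3a2* 9.31 ± 1.07 CPM per kb. *Aldh1l2* averaged 4.19 ± 3.21 CPM per kb, *Aldh3b1* 2.01 ± 0.599 CPM per kb and *Aldh1a3* 0.323 ± 0.157 CPM per kb. *Aldh3a1*, *Aldh1a1* and *Aldh1a7* were each under 0.05 CPM per kb on average. *Aldh3a1* changed its place in this order. It averaged 30.1 ± 16.4 CPM per kb in *KEAP1* KO #3, where only *Aldh2* had a higher mean (102 ± 18.2 CPM per kb) and where its range overlapped that of *Aldh9a1* (20.0 to 25.3 CPM per kb). In *KEAP1* KO #1 it averaged 17.3 ± 5.99 CPM per kb and in *KEAP1* KO #2 11.8 ± 5.09 CPM per kb.

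**Figure D1:**
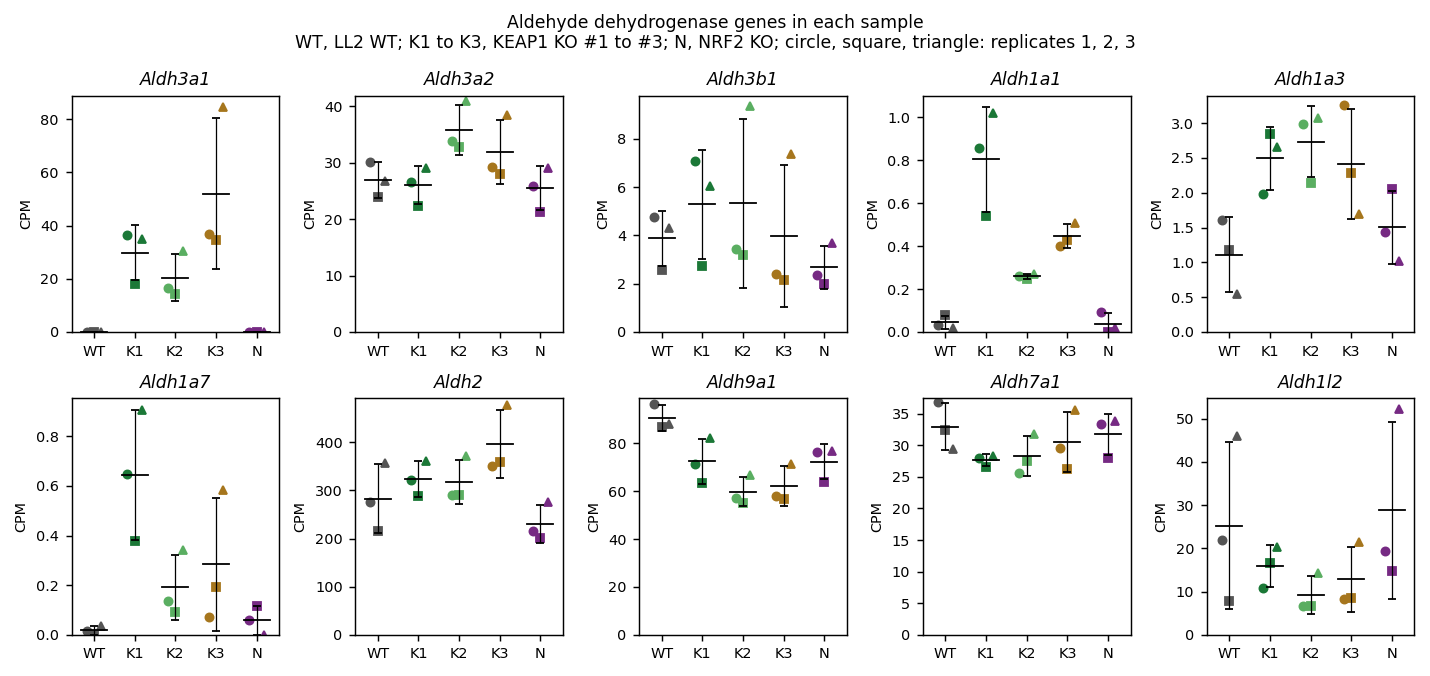
CPM (vertical axes, linear and starting at 0) of the 10 aldehyde dehydrogenase genes in LL2 WT, *KEAP1* KO #1 to #3 and *NRF2* KO. Points are the 3 replicates of a line, horizontal lines the means and bars the SD. *Aldh3a1* lies at 14.4 CPM or above in the 9 *KEAP1* KO samples and near 0 in the other 6, while *Aldh9a1* is highest in LL2 WT.

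Against LL2 WT, 4 of the 10 members were called in *KEAP1* KO #1, where 8.54% of all genes tested were called. *KEAP1* KO #2 had 3 (against 13.7% of genes), and *KEAP1* KO #3 also had 3 (against 13.4% of genes). All of these were higher, and 4.55%, 5.94% and 6.09% of the genes tested were called higher in these clones. *Aldh3a1*, *Aldh1a1* and *Aldh1a3* were called higher in each of the 3 clones, as were 2.86% of genes. The 4 comparisons share the LL2 WT samples, so they are not independent of each other. All 10 members passed the filter on low values, but *Aldh3a1*, *Aldh1a1* and *Aldh1a7* passed it only through the *KEAP1* KO samples. The direction of these 3 against LL2 WT was thus largely set by the filter. The number of members called in the *KEAP1* KO clones is therefore not a result about the family. In *NRF2* KO, 0 of 10 members were called by limma (0.464% of all genes), and 1, *Aldh9a1*, had an unadjusted p under 0.05. With sample quality weights in limma, 1 member was called there, *Aldh3a1*, which lay at about the floor in both lines. Those weights called 445 genes higher and 765 lower there, of 14652 tested. The median log2 fold change of the members was 0.30, 0.36 and 0.37 in *KEAP1* KO #1, #2 and #3, and −0.095 in *NRF2* KO. Over all genes tested it was 0.11, 0.029, 0.021 and 0.043 in the same order.

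**Figure D2:**
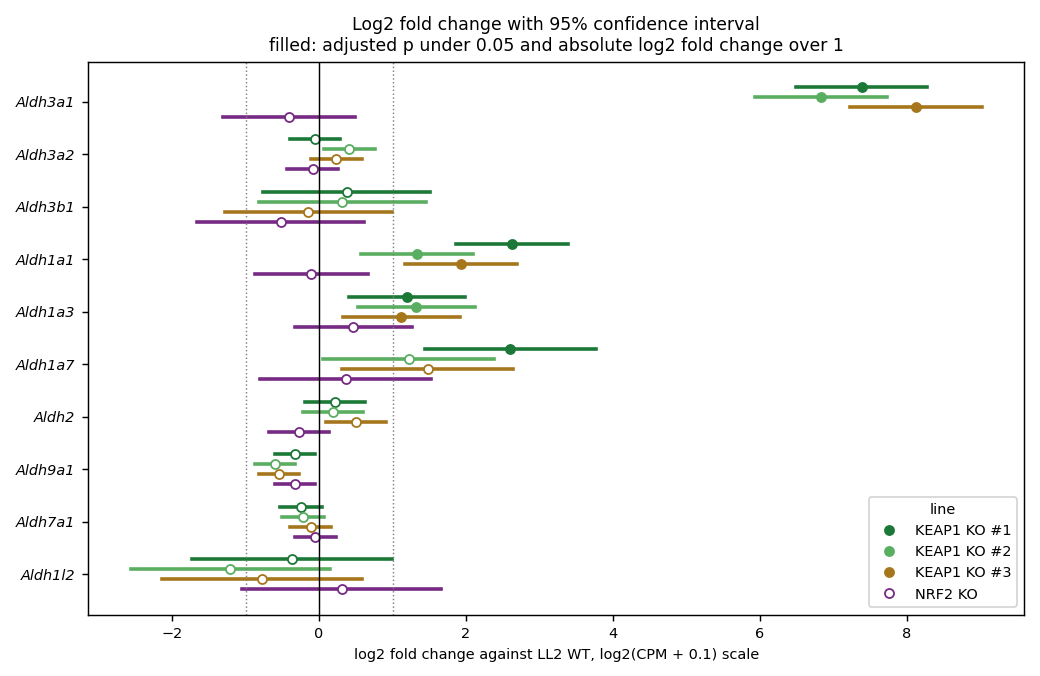
Log2 fold change of each member against LL2 WT (horizontal axis, log2(CPM + 0.1) scale) with its 95% confidence interval, for the 3 *KEAP1* KO clones and *NRF2* KO. Filled points are called and open points are not, and dotted lines mark a log2 fold change of 1 in either direction. The filled points belong to *Aldh3a1*, *Aldh1a1*, *Aldh1a3* and, in *KEAP1* KO #1, *Aldh1a7*.

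The class 3 enzymes gave the largest difference of the family. *Aldh3a1* encodes a cytosolic enzyme that oxidizes medium-chain and aromatic aldehydes, including those from lipid peroxidation, and is known for its abundance in the cornea. The LL2 WT replicates read 0.127, 0.0791 and 0.0228 CPM and those of *NRF2* KO 0, 0.0706 and 0.0242 CPM, so 5 of these 6 samples lay at or under the floor. *KEAP1* KO #1 read 36.5, 17.9 and 35.1 CPM, *KEAP1* KO #2 read 16.4, 14.4 and 30.5 CPM, and *KEAP1* KO #3 read 36.8, 34.6 and 84.6 CPM. Every *KEAP1* KO sample lay far above every LL2 WT and *NRF2* KO sample. The lowest sample of *KEAP1* KO #1 exceeded the highest LL2 WT sample 141-fold, that of *KEAP1* KO #2 114-fold and that of *KEAP1* KO #3 273-fold. The log2 fold changes of *KEAP1* KO #1, #2 and #3 were 7.38, 6.83 and 8.13, each with a standard error of 0.41 (adjusted p = 1.24e-07, 1.44e-07 and 2.48e-08). Because LL2 WT lies near 0, this size depends on the constant added, and it ran from 4.24 to 5.50 over the clones with a constant of 1 CPM and from 8.04 to 9.34 with 0.01 CPM. In *NRF2* KO it was −0.41 (95% confidence interval −1.31 to 0.48, adjusted p = 0.778), between 2 lines at about the floor. Sample quality weights gave −1.01 there (adjusted p = 0.00193).

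*Aldh3a2*, which encodes the fatty aldehyde dehydrogenase of the endoplasmic reticulum, is the neighbor of *Aldh3a1*. In GENCODE M21 (GRCm38), *Aldh3a1* spans chr11:61207537-61218421 on the plus strand and *Aldh3a2* chr11:61223417-61267464 on the minus strand, 4995 bases apart. Over 1348 aligned coding bases the genes were 67.7% identical, and neither shared a stretch of 31 bases, the length on which Kallisto assigns reads by default, with any other gene. The most alike window of 90 coding bases is shown with the 14 differing bases in capitals, since it is where reads of the neighbors would be hardest to tell apart.
Aldh3a1, coding bases 595 to 684: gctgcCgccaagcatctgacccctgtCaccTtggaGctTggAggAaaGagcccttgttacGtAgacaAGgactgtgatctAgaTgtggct
Aldh3a2, coding bases 586 to 675: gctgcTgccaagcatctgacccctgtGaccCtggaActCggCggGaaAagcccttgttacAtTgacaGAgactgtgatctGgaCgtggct

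For *Aldh3a2*, LL2 WT read 30.1, 23.9 and 26.8 CPM, *KEAP1* KO #1 read 26.6, 22.3 and 29.0 CPM, *KEAP1* KO #2 read 33.8, 32.7 and 40.9 CPM, *KEAP1* KO #3 read 29.3, 27.9 and 38.4 CPM, and *NRF2* KO read 25.9, 21.3 and 29.1 CPM. The samples of *KEAP1* KO #2 lay above those of LL2 WT, and the ranges of the other lines overlapped it. The log2 fold change of *KEAP1* KO #2 was 0.41 (95% confidence interval 0.064 to 0.76, adjusted p = 0.0666). Those of *KEAP1* KO #1, *KEAP1* KO #3 and *NRF2* KO were −0.053, 0.23 and −0.087 (adjusted p = 0.846, 0.287 and 0.886), and none was called. *Aldh3b1*, whose product oxidizes lipid-derived aldehydes at membranes, ranged from 1.98 to 9.37 CPM. LL2 WT averaged 3.87 ± 1.15 CPM (SD, n = 3), *KEAP1* KO #1 to #3 averaged 5.28 ± 2.27, 5.33 ± 3.50 and 3.97 ± 2.93 CPM, and *NRF2* KO averaged 2.67 ± 0.889 CPM. All 5 lines overlapped, and the log2 fold changes of 0.38, 0.32, −0.14 and −0.52 had adjusted p between 0.647 and 0.858. *Aldh3b1* shares 14.4% of its 31-base stretches with *Aldh3b3*, which averaged 0.0053 CPM in *KEAP1* KO #2, 0.0019 CPM in *NRF2* KO and 0 in the other lines.

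Of the class 1A genes, all at low levels, *Aldh1a1* and *Aldh1a3* passed the test as higher in each *KEAP1* KO clone, and *Aldh1a7* did so in *KEAP1* KO #1 alone. *Aldh1a1* encodes a cytosolic enzyme that makes retinoic acid and is much used as a marker of stem-like tumor cells. LL2 WT read 0.0346, 0.0806 and 0.0186 CPM and *NRF2* KO read 0.0940, 0 and 0.0198 CPM, all under the floor. *KEAP1* KO #1 read 0.855, 0.539 and 1.02 CPM, *KEAP1* KO #2 read 0.262, 0.247 and 0.269 CPM, and *KEAP1* KO #3 read 0.401, 0.427 and 0.509 CPM. All 9 *KEAP1* KO samples lay above the floor and above the other 6. Set against the floor, the means of *KEAP1* KO #1, #2 and #3 were higher at least 8.04-fold, at least 2.59-fold and at least 4.46-fold. The adjusted p was 0.000223, 0.0118 and 0.00115 (log2 fold change 2.63, 1.34 and 1.93). With a constant of 1 CPM the log2 fold change was 0.78, 0.27 and 0.47, and none was called.

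*Aldh1a7*, a rodent gene close to *Aldh1a1*, read 0.0172, 0 and 0.0370 CPM in the LL2 WT replicates. *KEAP1* KO #1 read 0.649, 0.379 and 0.905 CPM, *KEAP1* KO #2 read 0.137, 0.0937 and 0.341 CPM, *KEAP1* KO #3 read 0.0725, 0.194 and 0.584 CPM, and *NRF2* KO read 0.0591, 0.115 and 0 CPM. The samples of each *KEAP1* KO clone lay above those of LL2 WT, but 1 sample of *KEAP1* KO #2 and 1 of *KEAP1* KO #3 stayed at or under the floor. Against the floor, *KEAP1* KO #1 was higher at least 6.44-fold (log2 fold change 2.60, adjusted p = 0.00405), and this was called. The log2 fold change was 1.22 in *KEAP1* KO #2 (adjusted p = 0.1001) and 1.48 in *KEAP1* KO #3 (adjusted p = 0.0521), and neither was called. The difference in *KEAP1* KO #3 was called without *KEAP1* KO #3 replicate 1 (1.94, adjusted p = 0.0245), without *NRF2* KO replicate 3 (1.48, adjusted p = 0.0498), with quantile normalization (1.52, adjusted p = 0.0157) and under other settings given further on.

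Reads of *Aldh1a1* and *Aldh1a7* are not fully separable. *Aldh1a1* spans chr19:20492715-20643465 on the plus strand and *Aldh1a7* chr19:20692953-20727562 on the minus strand, with 49487 bases between them. Their coding sequences were identical at 1377 of 1503 bases (91.6%), with a longest identical run of 100 bases, and 281 stretches of 31 bases were common to both, 5.70% of those of *Aldh1a1* and 13.8% of those of *Aldh1a7*. How far reads of either gene were assigned to the other was not tested. The likeness extends upstream of the start sites. The 120 bases before the start of *Aldh1a1* at its downstream RefSeq start (GRCm38.p6, chr19:20601848-20601967, plus strand) and before that of *Aldh1a7* (chr19:20727557-20727676, minus strand) are shown because both genes were higher in *KEAP1* KO #1, with the longest run they share, 65 bases, in capitals.
Aldh1a1: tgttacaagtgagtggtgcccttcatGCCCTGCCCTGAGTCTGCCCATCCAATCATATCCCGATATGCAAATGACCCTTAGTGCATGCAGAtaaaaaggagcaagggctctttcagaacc
Aldh1a7: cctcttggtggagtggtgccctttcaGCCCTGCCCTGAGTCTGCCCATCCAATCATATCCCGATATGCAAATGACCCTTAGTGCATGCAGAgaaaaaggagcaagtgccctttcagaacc

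Over the whole windows of 250 bases before to 50 bases after the start, 77.5% of 285 aligned bases were identical. The window at the upstream start of *Aldh1a1* shared no run longer than 8 bases with *Aldh1a7*. Neither window of *Aldh1a1* nor that of *Aldh1a7* held the core of the antioxidant response element, searched as TGACNNNGC on both strands, and 12.4% of all 32851 RefSeq windows held it. No match says only that these letters are not in this window.

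*Aldh1a3*, which like *Aldh1a1* encodes a retinal-oxidizing enzyme (chr7:66390890-66427517, minus strand), read 1.61, 1.18 and 0.542 CPM in the LL2 WT replicates. *KEAP1* KO #1 read 1.98, 2.84 and 2.66 CPM, *KEAP1* KO #2 read 2.98, 2.15 and 3.07 CPM, *KEAP1* KO #3 read 3.26, 2.29 and 1.69 CPM, and *NRF2* KO read 1.44, 2.06 and 1.02 CPM. Each *KEAP1* KO sample lay above the 3 LL2 WT samples, and the *NRF2* KO samples overlapped both. The log2 fold changes of *KEAP1* KO #1, #2 and #3 were 1.196, 1.32 and 1.12 (adjusted p = 0.0327, 0.0152 and 0.0344), all called, and that of *NRF2* KO was 0.47 (adjusted p = 0.707). These calls rest on LL2 WT replicate 3, without which the log2 fold changes were 0.79, 0.92 and 0.72 and none was called. Single calls were also lost without *KEAP1* KO #1 replicate 2 or 3 (adjusted p = 0.112 and 0.0818), *KEAP1* KO #2 replicate 1 (0.0547) or *KEAP1* KO #3 replicate 1 or 2 (0.137 and 0.0796). All 3 were lost when only the 2 lines compared were modelled, with adjusted p of 0.108, 0.0649 and 0.131, and with sample quality weights, which gave 0.52, 0.71 and 0.59. Without the filter the adjusted p was 0.0633 in *KEAP1* KO #1 and 0.0682 in *KEAP1* KO #3, and in *KEAP1* KO #1 it was 0.0552 after median-ratio scaling and 0.0768 after quantile normalization, none of them called.

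Among mitochondrial and cytosolic housekeeping members, *Aldh9a1* differed in the other direction. Its product oxidizes trimethylaminobutyraldehyde on the way to carnitine. LL2 WT read 96.7, 86.7 and 88.1 CPM, *KEAP1* KO #1 read 71.4, 63.7 and 82.4 CPM, *KEAP1* KO #2 read 57.4, 55.3 and 66.7 CPM, *KEAP1* KO #3 read 58.1, 56.7 and 71.6 CPM, and *NRF2* KO read 76.3, 64.1 and 76.8 CPM. All 12 samples of the knockout lines lay below the lowest LL2 WT sample. The log2 fold change of *KEAP1* KO #1 was −0.33 (adjusted p = 0.0758). It was −0.60 (95% confidence interval −0.87 to −0.33, adjusted p = 0.00285) in *KEAP1* KO #2, −0.55 (95% confidence interval −0.82 to −0.28, adjusted p = 0.00490) in *KEAP1* KO #3 and −0.32 (adjusted p = 0.342) in *NRF2* KO. The changes in *KEAP1* KO #2 and #3 passed the adjusted p and not the size required for a call. Of the 5 members with a RefSeq promoter window, *Aldh9a1* was the one with a match to TGACNNNGC, starting 87 bases before the start site. This was 1 of 6 windows, beside 12.4% of all RefSeq windows. *Aldh3a1*, *Aldh1a3*, *Aldh2*, *Aldh7a1* and *Aldh1l2* had no window and were not searched. The 120 bases before the start (GRCm38.p6, chr1:167349871-167349990, plus strand) are shown with the match in capitals.
Aldh9a1: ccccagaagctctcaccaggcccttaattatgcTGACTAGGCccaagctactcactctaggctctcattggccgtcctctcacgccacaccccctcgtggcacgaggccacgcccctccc

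*Aldh2* encodes the mitochondrial enzyme that oxidizes acetaldehyde and had the highest level of the family. LL2 WT read 275, 215 and 357 CPM, *KEAP1* KO #1 read 322, 288 and 362 CPM, *KEAP1* KO #2 read 291, 289.5 and 371 CPM, *KEAP1* KO #3 read 352, 359 and 477 CPM, and *NRF2* KO read 215, 201 and 275.5 CPM. Each line overlapped LL2 WT, while all 9 *KEAP1* KO samples lay above the highest *NRF2* KO sample. Against LL2 WT the log2 fold change was 0.22 (adjusted p = 0.433), 0.19 (adjusted p = 0.477), 0.50 (95% confidence interval 0.09 to 0.91, adjusted p = 0.0594) and −0.27 (adjusted p = 0.659) in the order of the lines. *Aldh7a1*, on chromosome 18, encodes the enzyme of lysine breakdown that oxidizes aminoadipic semialdehyde. It varied least, from 25.6 to 36.8 CPM over the 15 samples. Its log2 fold changes were −0.25, −0.22, −0.12 and −0.052, with adjusted p from 0.194 to 0.920.

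*Aldh1l2* encodes the mitochondrial formyltetrahydrofolate dehydrogenase, which oxidizes a folate-bound carbon unit to carbon dioxide. LL2 WT read 21.9, 7.77 and 46.0 CPM, *KEAP1* KO #1 read 10.7, 16.6 and 20.3 CPM, *KEAP1* KO #2 read 6.63, 6.60 and 14.3 CPM, *KEAP1* KO #3 read 8.301, 8.58 and 21.6 CPM, and *NRF2* KO read 19.4, 14.7 and 52.3 CPM. Samples of LL2 WT and of *NRF2* KO thus differed widely within the line, and every line overlapped LL2 WT. The log2 fold change was −0.37 in *KEAP1* KO #1, −1.21 in *KEAP1* KO #2 (95% confidence interval −2.57 to 0.15, adjusted p = 0.162), −0.78 in *KEAP1* KO #3 and 0.31 in *NRF2* KO, none called. Without LL2 WT replicate 2 the difference in *KEAP1* KO #2 was −1.88 (adjusted p = 0.0262) and was called. With sample quality weights the differences in *KEAP1* KO #2 and #3 were −1.63 (adjusted p = 9.01e-06) and −1.24 (adjusted p = 0.000704), both called. Of the 31-base stretches of *Aldh1l2*, 13.5% occur on the opposite strand of *D10Wsu102e*, and the sources used here do not state whether reads were assigned by strand. Likewise 4.66% of those of *Aldh7a1* occur on the opposite strand of *Phax* and 1.93% of those of *Aldh2* on that of *Gm42879*.

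Replicate 3 was the highest of its line in 5 of 5 lines for *Aldh1l2* and *Aldh2*, as it was for 20.5% of all genes tested. For *Aldh3a2*, *Aldh1a7*, *Aldh9a1* and *Aldh7a1* it was the highest in exactly 4 of 5 lines. Of all genes tested, 36.8% had it highest in at least 4 of 5 lines, a share that includes those with 5 of 5. On the log2(CPM + 0.1) scale, *Aldh1l2* in replicate 3 exceeded the mean of replicates 1 and 2 by between 0.60 in *KEAP1* KO #1 and 1.81 in LL2 WT, with a median of 1.34 over the lines. For *Aldh3b1* the difference was 1.48 in *KEAP1* KO #2 and 1.65 in *KEAP1* KO #3. For *Aldh3a1* it was 0.46, 0.99 and 1.24 in *KEAP1* KO #1, #2 and #3, much smaller than the difference of these clones from LL2 WT. *Aldh1a3* ran the other way in LL2 WT (−1.205), *KEAP1* KO #3 (−0.66) and *NRF2* KO (−0.70). The labels name no batch, and what replicate 3 had in common across lines was not tested.

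**Figure D3:**
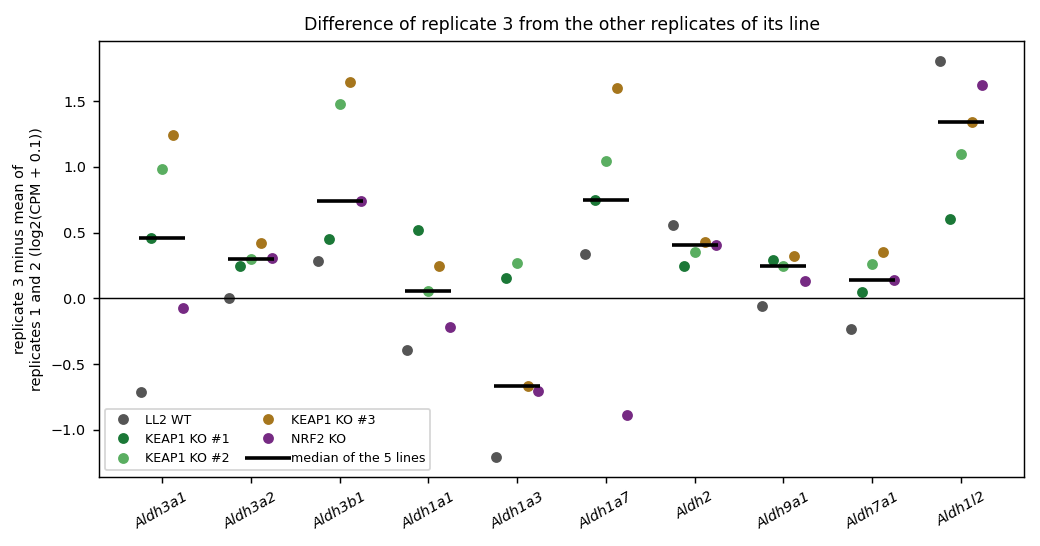
Difference of replicate 3 from the mean of replicates 1 and 2 of the same line (vertical axis, log2(CPM + 0.1)), for each member and line, with the median over the 5 lines as a black bar. All 5 points of *Aldh1l2* and of *Aldh2* lie above 0, with medians of 1.34 and 0.40.

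The *KEAP1* KO clones were compared with each other to find members that differed between clones of the same knockout. *Aldh1a1* was lower in *KEAP1* KO #2 than in *KEAP1* KO #1, with a mean of 0.259 ± 0.0115 CPM against 0.804 ± 0.244 CPM (SD, n = 3) and no overlap (log2 fold change −1.29, adjusted p = 0.0324). It was the only member called between these clones, where 4.58% of genes were called. Between *KEAP1* KO #3 and *KEAP1* KO #1, 0 members were called by limma (4.63% of genes) and 0 had an unadjusted p under 0.05. Between *KEAP1* KO #3 and *KEAP1* KO #2, 0 members were called by limma (0.485% of genes) and 1, *Aldh3a1*, had an unadjusted p under 0.05. For *Aldh3a1*, *KEAP1* KO #3 averaged 52.0 ± 28.3 CPM against 20.5 ± 8.80 CPM for *KEAP1* KO #2, a log2 difference of 1.295 (95% confidence interval 0.40 to 2.19, adjusted p = 0.283). The order of the lines for *Aldh1a1* was *KEAP1* KO #1, #3 and #2, then LL2 WT and *NRF2* KO, and only the last pair overlapped. For *Aldh3a1* it was *KEAP1* KO #3, #1 and #2, then LL2 WT and *NRF2* KO, and neighbors overlapped except *KEAP1* KO #2 and LL2 WT.

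The mean of the 3 *KEAP1* KO clones was also set against *NRF2* KO, the lines with opposite changes of NRF2. Here 3 members were called, all higher, where 9.94% of genes were called and 5.19% were called higher. These were *Aldh3a1*, *Aldh1a1* and *Aldh1a7*, which passed the filter on low values only through the *KEAP1* KO samples. Their direction was thus largely set by the filter, and their number is not a result about the family. *Aldh3a1* was at least 341-fold higher (log2 fold change 7.86, adjusted p = 2.53e-09), and *Aldh1a1* at least 5.03-fold higher (log2 fold change 2.07, adjusted p = 0.000156), in both cases against the floor because all 3 *NRF2* KO samples lay under it. *Aldh1a7* averaged 0.373 CPM in the clones and 0.0580 CPM in *NRF2* KO (log2 fold change 1.40, adjusted p = 0.0313), with overlapping samples. *Aldh2* was higher by 0.58 (95% confidence interval 0.24 to 0.91, adjusted p = 0.0141) without passing the size required. *Aldh1a3* differed by 0.75 (adjusted p = 0.0871) and *Aldh1l2* by −1.09 (adjusted p = 0.140), and neither was called.

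Of 11 further family genes, 7 were tested, and 0 were called higher by limma in any of the 3 *KEAP1* KO clones or *NRF2* KO. Over all genes tested, 4.55%, 5.94% and 6.09% were called higher in *KEAP1* KO #1, #2 and #3. With 7 genes, 0 is near these shares. *Aldh18a1*, which makes the precursor of proline, stood at 125 ± 33.6 CPM in LL2 WT and at 70.0 ± 8.74, 62.9 ± 20.9 and 59.7 ± 15.9 CPM in *KEAP1* KO #1, #2 and #3. The log2 differences were −0.81, −1.01 and −1.07 (adjusted p = 0.0358, 0.00931 and 0.00668), the last 2 of them called. *Aldh8a1* had the largest mean log2 fold change over the clones among these genes, 0.38, and was not called.

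A further list of 20 held other enzymes that reduce, oxidize or conjugate aldehydes. Of its 16 tested genes, *KEAP1* KO #1 had 6 called higher and *KEAP1* KO #2 and #3 had 8 each, beside 4.55%, 5.94% and 6.09% of all genes, and none was called lower in these clones. Their median log2 fold change was 0.58, 1.04 and 1.14. *Gsta4*, which conjugates hydroxynonenal to glutathione, averaged 31.1 ± 5.21 CPM in LL2 WT and rose in the clones to 465 ± 29.6, 620 ± 110 and 754 ± 51.0 CPM (log2 fold change 3.91, 4.31 and 4.61), and fell by 1.36 on the log2 scale in *NRF2* KO (adjusted p = 0.00497). *Cbr3*, a carbonyl reductase, rose by 3.74, 3.13 and 3.35 on the log2 scale, and *Adh7*, a retinol-oxidizing alcohol dehydrogenase, by 3.08, 2.65 and 3.31. *Esd*, the esterase that completes glutathione-dependent formaldehyde clearance, rose from 648 ± 22.2 CPM to 1599 ± 130, 2010 ± 31.2 and 2550 ± 155 CPM and was 256 ± 41.1 CPM in *NRF2* KO. *Aox1*, aldehyde oxidase, rose by 1.73, 1.52 and 1.52 on the log2 scale. In *NRF2* KO, *Cbr3*, *Esd* and *Gsta4* were called lower, the 3 genes of this list that were. Over all 14652 genes tested, 0.464% were called there, 55 of them lower. *Akr1b10* had the largest mean fall of the list, −0.61 over the clones, and was not called.

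**Figure D4:**
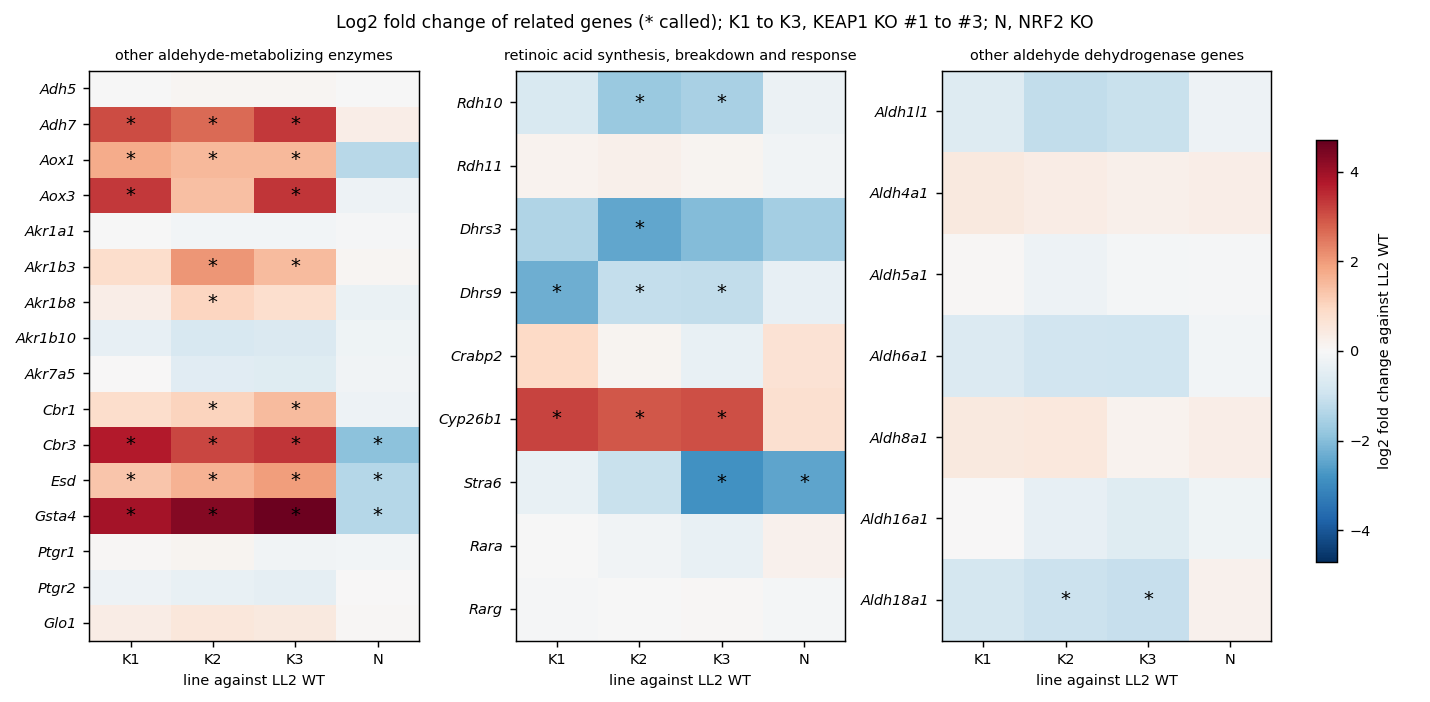
Log2 fold change against LL2 WT (color scale, red higher and blue lower) of the tested genes of 3 lists, with columns for *KEAP1* KO #1 to #3 (K1 to K3) and *NRF2* KO (N) and an asterisk on each called value. *Gsta4*, *Cbr3*, *Cyp26b1* and *Adh7* are red in all 3 *KEAP1* KO columns, *Dhrs9* is blue in them, and *Aldh18a1* is the one called gene of the other aldehyde dehydrogenases.

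Because *Aldh1a1* and *Aldh1a3* encode enzymes that make retinoic acid, genes that supply retinal or remove retinoic acid were examined beside them. Of 13 such genes 9 were tested. *Cyp26b1*, which breaks retinoic acid down, was called higher in the 3 *KEAP1* KO clones (log2 fold change 3.16, 2.93 and 3.05) and averaged 3.09 ± 0.779, 2.57 ± 0.161 and 2.80 ± 0.266 CPM there, against 0.264 ± 0.128 CPM in LL2 WT. *Dhrs9*, a retinol dehydrogenase, was called lower in all 3 (−2.28, −1.11 and −1.16). *Rdh10*, which makes retinal from retinol and was named after its values were seen, was called lower in *KEAP1* KO #2 (−1.75) and *KEAP1* KO #3 (−1.53). *Dhrs3*, a retinal reductase, was called lower in *KEAP1* KO #2 (−2.43, adjusted p = 0.0416). *Stra6*, the receptor for retinol-binding protein, was called lower in *KEAP1* KO #3 (adjusted p = 0.000393) and *NRF2* KO (adjusted p = 0.0226), where all samples lay under the floor against a mean of 0.735 ± 0.367 CPM in LL2 WT. The response gene *Rarb* was not tested, being at 0 in *KEAP1* KO #2 and #3 and at 0.601 ± 0.413 CPM in LL2 WT. Low *Rarb* was not limited to these clones. Every *NRF2* KO sample (mean 0.148 ± 0.0690 CPM) lay below the lowest sample of the parental line. The same held for *KEAP1* KO #1 (mean 0.0884 ± 0.0777 CPM).

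Of 10 folate enzymes, all tested, 0 were called in any line against LL2 WT. Over all genes tested, 8.54%, 13.7% and 13.4% were called in *KEAP1* KO #1, #2 and #3, and 0.464% in *NRF2* KO. With 10 genes, 0 is near these shares. At the ends of that list were *Shmt2*, with a mean log2 fold change over the clones of −0.33, and *Mthfd2l*, with 0.51. In the list of fatty aldehyde, sphingolipid and carnitine partners, 6 genes were tested and *Hacl1*, which releases aldehydes during the breakdown of branched fatty acids, was called lower in *KEAP1* KO #2 and #3 (−1.73 and −1.44, adjusted p = 0.00810 and 0.0211). *Gnpat* had the largest mean rise of these, 0.22, and was not called. Of 7 genes that serve as a check of NRF2 activity, *Nqo1*, *Gclc*, *Gclm* and *Txnrd1* were called higher in the 3 clones, and *Nqo1* and *Srxn1* were called lower in *NRF2* KO. *Srxn1* had a mean log2 fold change of −0.34 over the clones, with −0.74 (adjusted p = 0.00287) in *KEAP1* KO #2.

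For each member called in a *KEAP1* KO clone, the genes with the most alike pattern were those with the smallest root mean square difference of the 4 log2 fold changes against LL2 WT, among genes with a mean of at least 1 CPM. For *Aldh3a1* these included *Selp* (0.91) and *Krt76* (1.16), neither of them close. For *Aldh1a1* they were *Ppargc1a* (0.18), *Mndal* (0.19) and *Atf3* (0.24), and for *Aldh1a7* *Ces1f* (0.25), *Adgre5* (0.31) and *Atf3* (0.35). For *Aldh1a3* they were *Prickle1* (0.085), *Trim36* (0.096) and *Rrm2* (0.13).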

How the data were processed

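RNA of 5 LL2 lines with 3 biologic replicates each was analysed, grouped by the sample titles, and all 15 samples were used. The authors prepared mRNA libraries, pseudo-aligned the reads with Kallisto and deposited CPM for each gene symbol. The CPM values are fractional and carry no read counts, so the depth per sample is unknown and a test for counts was not applied. The methods name GRCm38.p6 and the submitters' processing notes name GRCm39. The table has no coordinates, and positions here are those of GENCODE M21 (GRCm38), in which 91.3% of the symbols and all 10 members were found. Sequences are from GENCODE M21 and, for promoters, RefSeq (GRCm38.p6).

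The entry without a symbol (0.0214% to 0.0491% of a sample) was left out. Of 35880 genes, the 14652 whose values summed to 3 CPM or more were kept. They were fitted as log2(CPM + 0.1) with limma 3.58.1 in R 4.3.3 (a mean per line, empirical Bayes with a trend, Benjamini-Hochberg adjustment over all genes tested), and 8 contrasts were drawn. The procedure was tested on simulated data, with changes placed only in genes well above the floor in LL2 WT and with independent noise. It therefore does not cover *Aldh3a1*, *Aldh1a1* and *Aldh1a7*, which start near the floor, or an effect shared by replicates across lines. Named are all members, and of each list the genes called in all 3 *KEAP1* KO clones or in *NRF2* KO and those with the largest mean rise and fall, at most 6 a list. The members and lists were chosen with earlier results of these data known. Alternatives were constants of 1, 0.5 and 0.01 CPM, other filters, median-ratio and quantile scaling, other models, a replicate block, and leaving out each sample. One gene that the rule for alike patterns names is not reported here.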

Additional observations from a re-analysis of the deposited data

Results flagged for a closer look

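These 4 results were picked out because the effects of 2 *KEAP1* KO clones, or of the 3 clones and *NRF2* KO, under the same contrast with LL2 WT differed by a test of the difference itself (limma, adjusted over all genes tested). *Aldh1a1* differed between 2 clones of the same knockout, by −1.29 on the log2 scale in *KEAP1* KO #2 against *KEAP1* KO #1 (adjusted p = 0.0324, lower in 3 of 3 samples). The mean of the 3 *KEAP1* KO clones differed from *NRF2* KO by 7.86 for *Aldh3a1* (adjusted p = 2.53e-09, higher in 9 of 9 samples) and by 2.07 for *Aldh1a1* (adjusted p = 0.000156, higher in 9 of 9 samples). It differed by 1.40 for *Aldh1a7* (adjusted p = 0.0313), where samples overlapped. The 9 samples are 3 replicates of each of 3 clones, set against 1 *NRF2* KO clone, and not 9 independent knockouts. *Aldh3a1*, *Aldh1a1* and *Aldh1a7* passed the filter on low values only through the *KEAP1* KO samples, which largely set the direction against *NRF2* KO. *Aldh1a1* and *Aldh1a7* lay near the floor in most samples and share part of their sequence.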

How the results depend on the processing

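*Aldh3a1* was called in all 3 *KEAP1* KO clones under every alternative run. The members called in *KEAP1* KO #1 fell from 4 to 1 with a constant of 1 CPM, to 2 with a filter on a mean of at least 1 CPM, which removed *Aldh1a1* and *Aldh1a7*, and to 1 with only replicates 1 and 2 of each line, a choice made after seeing the data, under which *Aldh1a1* and *Aldh1a7* did not pass the filter either. In *KEAP1* KO #2 they fell from 3 to 1 with 1 CPM and to 1 with replicates 1 and 2, and in *KEAP1* KO #3 from 3 to 1 with 1 CPM, to 1 with 0.5 CPM and to 1 with replicates 1 and 2. In *NRF2* KO 1 was called with sample quality weights (*Aldh3a1*), which over all genes called 445 higher and 765 lower there. Leaving out each sample gave 2 to 4 members in each of the 3 *KEAP1* KO clones, 2 in *KEAP1* KO #1 without *KEAP1* KO #1 replicate 3, and 0 in *NRF2* KO. Leaving out a sample moved *Aldh1a3* from 0.79 to 1.50, from 0.92 to 1.63 and from 0.72 to 1.42 in the 3 clones. *Aldh1a7* was tested in 13 of the 15.

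Uncalled differences changed sign as follows. With sample quality weights, *Aldh1a1* (0.30), *Aldh1a3* (−0.083) and *Aldh1l2* (−0.16) did so in *NRF2* KO, *Aldh3a2* in *KEAP1* KO #3 (−0.045) and *Aldh3b1* in *KEAP1* KO #2 (−0.39). With replicates 1 and 2, *Aldh1l2* in *KEAP1* KO #1 (0.031) and *Aldh3b1* in *KEAP1* KO #2 (−0.081) did, and with quantile normalization *Aldh3b1* in *KEAP1* KO #3 (0.048). Leaving out a sample gave ranges across 0 in *NRF2* KO for *Aldh1a1* (−0.38 to 0.099), *Aldh1l2* (−0.36 to 0.91), *Aldh3a2* (−0.19 to 0.033) and *Aldh7a1* (−0.13 to 0.034), in *KEAP1* KO #1 for *Aldh1l2* (−1.04 to 0.23) and *Aldh3a2* (−0.14 to 0.051), and for *Aldh3b1* in *KEAP1* KO #2 (−0.18 to 0.59) and *KEAP1* KO #3 (−0.69 to 0.17). The causes were not tested. The estimation of the weights stopped before full convergence.

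The replicate numbers did not meet the criterion for pairing, an r over 0.1 in each pair of samples with the same number. The median r between deviations from the line means was 0.276 where 2 samples carried the same number (30 pairs) and −0.192 elsewhere (60 pairs), and the criterion held in 2 of 10 pairs of lines. Over the 10 pairs of lines r ran from 0.422 to 0.631 for replicate 3, from 0.126 to 0.529 for replicate 2 and from −0.022 to 0.278 for replicate 1. With a replicate block in limma, the calls numbered 4 in each *KEAP1* KO clone and 0 in *NRF2* KO. Over all genes the block gave 790 higher and 807 lower in *KEAP1* KO #1, 944 and 1344 in #2, and 966 and 1304 in #3. Each of these was more than without the block. The members added were *Aldh1l2* in *KEAP1* KO #2 (−1.21, adjusted p = 0.0107) and *Aldh1a7* in *KEAP1* KO #3 (1.48, adjusted p = 0.0358). *Aldh1a7* in *KEAP1* KO #3 was also called with a constant of 0.01 CPM, rescaled, with quantile normalization, with weights and without the trend.

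Over all genes in *KEAP1* KO #1 the log2 fold change had a median of 0.11, with 667 genes called higher and 584 lower (53.3% higher). Rescaled by the median ratio it was 0.010, with 551 and 724 (43.2% higher). A constant of 1 CPM gave 371 and 413 in *KEAP1* KO #1, 536 and 739 in *KEAP1* KO #2 (from 870 and 1136), 588 and 715 in *KEAP1* KO #3 (from 892 and 1075) and 4 and 40 in *NRF2* KO (from 13 and 55). Weights gave 1034 and 1128, 1249 and 1997, 1268 and 1959, and 445 and 765 in the same order. Other settings in *NRF2* KO gave 41 and 138 with the block, 5 and 33 with the filter on the mean, 2 and 5 with only the lines compared in the model and 7 and 33 with replicates 1 and 2. Leaving out a sample gave 4 to 24 higher and 25 to 63 lower there, with 4 and 25 without *NRF2* KO replicate 2, 9 and 26 without LL2 WT replicate 1, and 7 and 28 when either LL2 WT replicate 3 or *NRF2* KO replicate 1 was left out. Values under 0.1 CPM rest on few reads.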
